A study of Homo sapiens with 6 samples.

Results

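The genes described here are 10 classical markers and regulators of the epithelial-mesenchymal transition: the cadherin genes CDH1, CDH2 and CDH3, the mesenchymal genes VIM and FN1, and the transcription factor genes ZEB1, ZEB2, SNAI1, SNAI2 and TWIST1. They were chosen by name, and every probe set that the platform annotation assigned to one of these genes alone was read out, which gave 26 of the 54613 probe sets that are not controls. The samples were COLO-320DM cells, an established line from a human colon tumour. The cells had been sorted by CD44, a hyaluronan receptor, into a CD44-positive and a CD44-negative group. Each group had 3 arrays, numbered 01, 02 and 03 in the labels, and none of the cells had been treated. Both groups therefore come from 1 cell line. Whether the replicates are separate cultures is not stated, so each p-value measures the spread of these arrays, and that spread may be technical.

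In the epithelial-mesenchymal transition, cells give up the junctions of an epithelium and take on a motile, matrix-producing state. E-cadherin, the product of CDH1, holds epithelial cells together, and the zinc finger factors of the ZEB and SNAI families and the helix-loop-helix factor TWIST1 are known to repress it directly or indirectly. Vimentin, fibronectin and N-cadherin, the products of VIM, FN1 and CDH2, are the usual markers of the mesenchymal state. In colorectal cancer this programme is known for its link to invasion, and CD44 is among the surface markers often measured beside it.

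The sort marker separated the arrays. CD44 stood at 7.86, 8.12 and 7.11 in CD44-positive arrays 01, 02 and 03, against 5.41, 5.29 and 4.99 in CD44-negative arrays 01, 02 and 03 (log2 intensity). Values are log2 of the deposited RMA intensity throughout, and differences are CD44-positive minus CD44-negative. A level under 5.12, the 30th percentile of the gene means, is called dim, since changes there are compressed. Median intensities of the 6 arrays ran from 44.9 to 46.5. Of 10 colorectal epithelial markers, 8 lay above the dim limit, among them KRT8, KRT18, KRT20, CDX2 and VIL1, while the epithelial adhesion gene EPCAM and the keratin gene KRT19 were dim in both groups. Of 12 fibroblast markers 6 were dim, LUM, POSTN, FAP and PDGFRA among them, as were 3 of 7 leukocyte, 3 of 8 endothelial and 5 of 8 neuroendocrine markers with a probe set. The other 6 fibroblast markers, COL1A1 and COL1A2 among them, lay above the limit. By the definition of the limit, 5933 of all 19775 genes were dim. The brightness of a probe set depends on its sequence, so levels of different genes or probe sets were not ranked against one another.

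None of the 10 genes passed limma's test between CD44-positive and CD44-negative cells. Of them, 6 had a probe set above the dim limit and entered the fit over 13842 genes, namely CDH3, VIM, FN1, ZEB1, ZEB2 and SNAI1. CDH1, CDH2, SNAI2 and TWIST1 were dim, and they were tested only in the fit over every probe set. The count of 0 stands beside 0 genes (0%) called in the whole gene fit, in which 273 genes had an unadjusted p under 0.05, against 692.1 by chance for unpaired arrays. With the replicate number as a block, which pairs same-numbered arrays, 8 genes (0.0578%) were called, and again none of the 10. CD44, the sort marker, had an adjusted p by limma of 0.106 without and 0.00176 with the block. The fit without the block thus did not call even the sort marker. Over all probe sets 5 (0.00916%) were called without and 28 (0.0513%) with the block, none of them of these genes. The gene that came nearest was FN1, whose groups did not overlap.

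**Figure D1:**
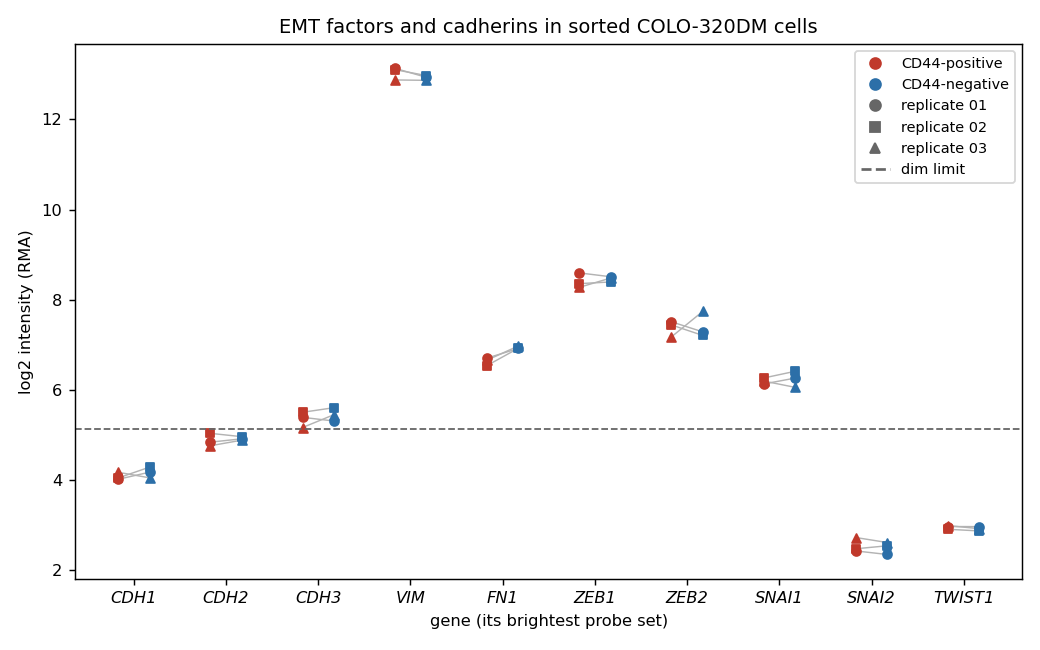
Log2 intensity (RMA) of the brightest probe set of each of the 10 genes, by array. CD44-positive arrays are red on the left of each gene, CD44-negative arrays blue on the right, symbols give the replicate number, grey lines join same-numbered arrays, and the dashed line is the dim limit of 5.12. FN1 is the one gene of the 10 in which the red and blue points do not overlap, and CDH1, CDH2, SNAI2 and TWIST1 lie under the limit.

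FN1 encodes fibronectin, a matrix glycoprotein that cells bind through integrins. Its brightest probe set, 216442_x_at, read 6.70, 6.54 and 6.66 in CD44-positive arrays 01, 02 and 03, against 6.92, 6.92 and 6.97 in CD44-negative arrays 01, 02 and 03. Every CD44-positive array thus lay below every CD44-negative array, and the pairs of same-numbered arrays differed by -0.22, -0.38 and -0.32. The difference was -0.31 ± 0.09 (SE, n = 3 each), with a 95% interval from -0.50 to -0.11, or 1.24-fold higher in the CD44-negative cells. The unadjusted p was 0.0074 and the adjusted p 1.00 by limma, and the adjusted p was 0.292 with the block, so FN1 did not pass in either fit. Groups that do not overlap, with CD44-positive cells on the low side, occurred in 2.60% of the genes tested, and in 5.43% in either direction. FN1 is thus 1 of 6 genes here against that background.

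The 7 FN1 probe sets did not give 1 picture. Probe set 212464_s_at read 6.05, 6.14 and 5.94 in CD44-positive arrays, against 6.28, 6.49 and 6.68 in CD44-negative arrays (01, 02 and 03). Its difference of -0.44 had a 95% interval from -0.72 to -0.16. Probe set 211719_x_at read 6.46, 6.35 and 6.18 in CD44-positive arrays, against 6.62, 6.76 and 6.80 in CD44-negative arrays. In both the groups did not overlap, and pair 03 differed most, at -0.74 and -0.62. Probe set 210495_x_at read 6.64, 6.56 and 6.70 in CD44-positive arrays, against 6.87, 6.86 and 6.93 in CD44-negative arrays, again without overlap. Among all probe sets above the dim limit 5.67% had groups that did not overlap, and 2.77% with the CD44-positive arrays on the low side. The 4 FN1 probe sets read the same gene, and the suffixes _x_at and _s_at mark probes shared by several sequences or transcripts, so they are not independent readings.

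The fifth bright FN1 probe set, 214701_s_at, went the other way. It read 5.49, 5.68 and 5.66 in CD44-positive arrays, against 5.52, 5.61 and 5.43 in CD44-negative arrays, a difference of 0.092 with a 95% interval from -0.14 to 0.32. Its groups overlapped. The difference between probe sets was not tested. Probe sets 1558199_at and 214702_at were dim, with differences of -0.062 and -0.013 and overlapping groups. The annotation gives 214701_s_at and 214702_at the same source sequence. With the mean of all 7 probe sets, FN1 differed by -0.20.

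**Figure D2:**
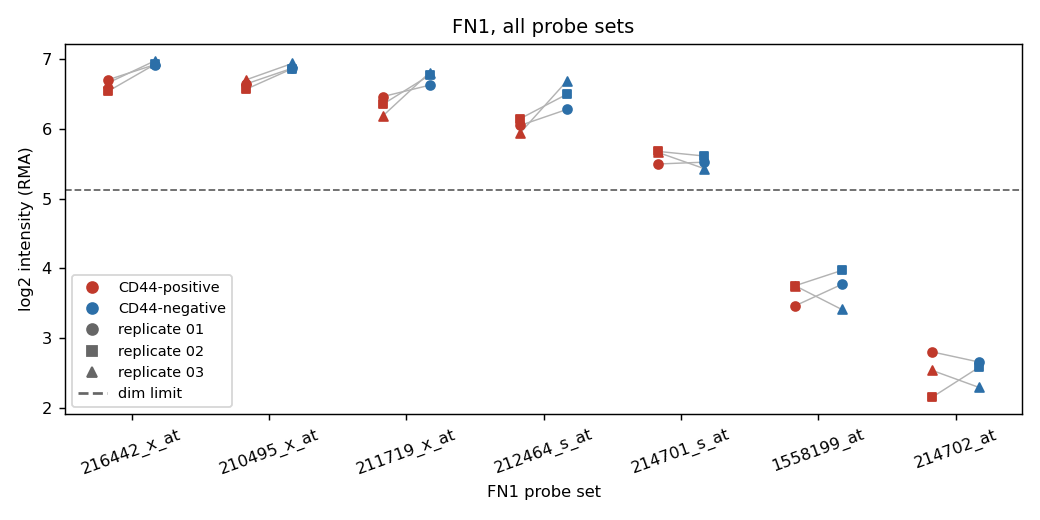
Log2 intensity (RMA) of the 7 FN1 probe sets by array, CD44-positive in red on the left and CD44-negative in blue on the right, with symbols for the replicate number and the dim limit dashed. In the 4 brightest probe sets all red points lie below all blue points, while in 214701_s_at they overlap.

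The FN1 promoter is shown because FN1 was the gene whose groups did not overlap. The RefSeq start site of FN1 in GRCh38.p14 has the 250 bases chr2:215436069-215436318 (minus strand) before it. They hold a cAMP response element, spelled TGACGTCA, in capitals below, a palindrome that reads the same on both strands and that is known to bind CREB and ATF factors. It begins 183 bases before the start. The same letters were found in 1.65% of 35116 promoter windows of this length, and the motif was chosen after the sequence had been seen.
FN1: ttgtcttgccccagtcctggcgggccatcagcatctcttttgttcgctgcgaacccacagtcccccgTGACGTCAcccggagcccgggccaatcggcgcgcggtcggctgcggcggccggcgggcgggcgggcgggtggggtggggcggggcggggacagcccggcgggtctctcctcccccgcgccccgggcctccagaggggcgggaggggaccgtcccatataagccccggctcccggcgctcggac

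VIM encodes vimentin, the intermediate filament protein of mesenchymal cells, and it was bright in both sorts. Probe set 201426_s_at read 13.13, 13.10 and 12.88 in CD44-positive arrays 01, 02 and 03, against 12.94, 12.97 and 12.87 in CD44-negative arrays, near the highest values of the arrays, 14.36 to 14.41. Each pair was on the CD44-positive side, by 0.20, 0.13 and 0.009, but CD44-positive array 03 lay within the CD44-negative range. The difference was 0.11 ± 0.10 (SE, n = 3 each), with a 95% interval from -0.12 to 0.34, whose farther end is 1.27-fold on this probe set, and changes so near the top of the scale are compressed. Vimentin did not pass, with an adjusted p by limma of 1.00 without and 0.804 with the block.

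The other VIM probe set, 1555938_x_at, followed the replicate number rather than the sort. It read 6.15, 6.33 and 7.23 in CD44-positive arrays, against 5.97, 6.22 and 7.14 in CD44-negative arrays 01, 02 and 03. The 2 arrays numbered 03 were the highest of the 6, whereas in 201426_s_at they were the lowest. The means of the 3 numbers spanned 1.12, and a span over 1 occurred in 1.25% of the probe sets above the dim limit. The CD44 difference of 0.13 had a 95% interval from -0.65 to 0.90 without the block, whose farther end is 1.87-fold. With the block the interval ran from -0.060 to 0.31. The pairs differed by 0.18, 0.10 and 0.094, each on the CD44-positive side, and the probe set was not called in either fit. This probe set was singled out after its values were seen, and what the arrays of 1 number share was not given in the labels.

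**Figure D3:**
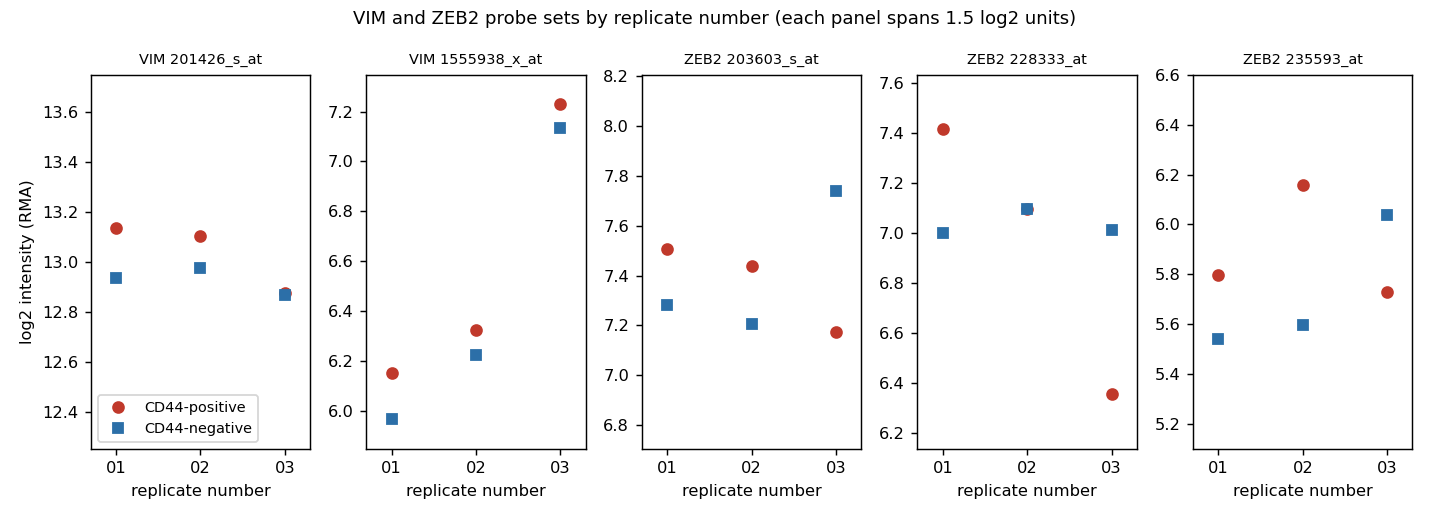
Log2 intensity (RMA) of the VIM and ZEB2 probe sets above the dim limit, by replicate number, with CD44-positive arrays as red circles and CD44-negative arrays as blue squares. VIM 1555938_x_at is highest in both arrays numbered 03, and in the 3 ZEB2 probe sets the red circle lies below the blue square at number 03.

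Of the 3 cadherin genes, CDH1 and CDH2 were dim and CDH3 lay above the dim limit. CDH1 encodes E-cadherin, the main adhesion protein of epithelial junctions, and its brighter probe set 201130_s_at read 4.01, 4.04 and 4.17 in CD44-positive arrays, against 4.17, 4.28 and 4.04 in CD44-negative arrays 01, 02 and 03. The groups overlapped, all 6 values were under the dim limit, and the difference was -0.092 (95% interval -0.32 to 0.14). Probe set 201131_s_at was dim as well, at 2.91, 3.01 and 3.07 in CD44-positive arrays, against 2.87, 2.78 and 2.95 in CD44-negative arrays. Its difference of 0.13 had the opposite sign.

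CDH2 encodes N-cadherin, which replaces E-cadherin in many mesenchymal cells. Probe set 203441_s_at read 4.84, 5.03 and 4.76 in CD44-positive arrays, against 4.91, 4.96 and 4.88 in CD44-negative arrays, a difference of -0.041 (95% interval -0.27 to 0.19). The CD44-negative values lay within the range of the CD44-positive values. The other CDH2 probe set, 203440_at, was dimmer, at 3.45 to 3.71 in CD44-positive and 3.28 to 3.66 in CD44-negative arrays.

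CDH3 encodes P-cadherin, a classical cadherin of basal epithelial layers, and was the only one of the 3 that entered the gene fit. It read 5.39, 5.50 and 5.16 in CD44-positive arrays, against 5.31, 5.60 and 5.45 in CD44-negative arrays. The pairs differed by 0.082, -0.10 and -0.28 and did not share a sign. The difference of -0.10 ± 0.12 (SE, n = 3 each) had a 95% interval from -0.38 to 0.18, so a difference beyond 1.30-fold lies outside it.

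ZEB1 and ZEB2 encode zinc finger factors that bind E-boxes in the CDH1 promoter and repress it. ZEB1 probe set 212764_at read 8.59, 8.35 and 8.27 in CD44-positive arrays, against 8.51, 8.39 and 8.48 in CD44-negative arrays 01, 02 and 03. All 3 CD44-negative values lay inside the CD44-positive range. The difference was -0.053 ± 0.11 (SE, n = 3 each), with a 95% interval from -0.30 to 0.19, whose farther end is 1.23-fold on this probe set. Probe set 212758_s_at differed by 0.041 and 210875_s_at by -0.18, the second with a 95% interval from -0.55 to 0.19, and the groups overlapped in both. In 210875_s_at the lowest array was CD44-positive 03, at 5.87, against 6.28 in its CD44-negative counterpart. The fourth, 239952_at, was dim.

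The promoter windows of the 10 genes were searched for the E-box that ZEB and SNAI factors bind, CACCTG, which reads CAGGTG on the other strand. The promoter table used here held 5 of the 10 genes, CDH2, VIM, FN1, ZEB1 and ZEB2, with 12 start sites, of which 7 belong to ZEB1. The E-box was found before 2 of the 12 start sites, both of ZEB1, and in 17.5% of all 35116 windows of 250 bases. The window that lies before the first ZEB1 start is shown because it holds the box, at chr10:31318167-31318416 (plus strand, GRCh38.p14, RefSeq). The box is in capitals and begins 57 bases before the start.
ZEB1: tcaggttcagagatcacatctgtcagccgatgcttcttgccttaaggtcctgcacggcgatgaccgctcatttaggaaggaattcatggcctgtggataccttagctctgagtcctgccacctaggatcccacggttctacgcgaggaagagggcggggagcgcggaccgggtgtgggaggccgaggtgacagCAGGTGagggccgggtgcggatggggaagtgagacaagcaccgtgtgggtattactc

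Of the 6 genes in the gene fit, ZEB2 had the widest range over the arrays, 0.57. Its brightest probe set, 203603_s_at, read 7.51, 7.44 and 7.17 in CD44-positive arrays 01, 02 and 03, against 7.28, 7.20 and 7.74 in CD44-negative arrays 01, 02 and 03. Pairs 01 and 02 differed by 0.22 and 0.23 and pair 03 by -0.57, so that the mean difference was -0.036 ± 0.16 (SE, n = 3 each; 95% interval -0.40 to 0.33). Probe set 228333_at read 7.42, 7.10 and 6.35 in CD44-positive arrays, against 7.00, 7.10 and 7.01 in CD44-negative arrays. Probe set 235593_at read 5.80, 6.16 and 5.73 in CD44-positive arrays, against 5.54, 5.60 and 6.04 in CD44-negative arrays. In all 3 probe sets pair 03 was on the CD44-negative side, by -0.57, -0.66 and -0.31, and pair 01 on the CD44-positive side. Without replicate 03 the blocked difference of 203603_s_at was 0.23, with an adjusted p by limma of 0.412 over the genes. The remaining ZEB2 probe sets, 233031_at and 233033_at, were dim, with differences of -0.097 and -0.11.

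The pattern of ZEB2 over the 6 arrays was most closely followed by KLF2, with a root mean square difference of 0.047 on the log2 scale after each gene's own mean had been removed. CYBRD1 (0.072), DDX59 (0.079), CXCL16 (0.081) and CAMLG (0.081) came next among the genes tested. The highest KLF2 array was CD44-negative 03, at 7.55, against 6.99 in CD44-positive 03. KLF2 was picked for its likeness to ZEB2 on these arrays, so this is not a separate observation. The ranking rests on 6 arrays and describes them only.

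SNAI1 and SNAI2 encode Snail and Slug, zinc finger repressors of CDH1. SNAI1 read 6.13, 6.26 and 6.19 in CD44-positive arrays, against 6.26, 6.41 and 6.05 in CD44-negative arrays. The CD44-positive values lay inside the CD44-negative range, and the difference was -0.046 ± 0.11 (SE, n = 3 each), with a 95% interval from -0.30 to 0.21. SNAI2 was dim in all arrays, at 2.42, 2.47 and 2.72 in CD44-positive arrays, against 2.34, 2.54 and 2.61 in CD44-negative arrays. TWIST1, a helix-loop-helix factor of the embryonic mesoderm, was dim too, at 2.96, 2.90 and 2.98 in CD44-positive arrays, against 2.96, 2.87 and 2.91 in CD44-negative arrays. Each of these 2 genes has a single probe set, with intervals from -0.23 to 0.31 for SNAI2 and from -0.17 to 0.24 for TWIST1, and at such levels an RMA difference understates a change in RNA.

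**Figure D4:**
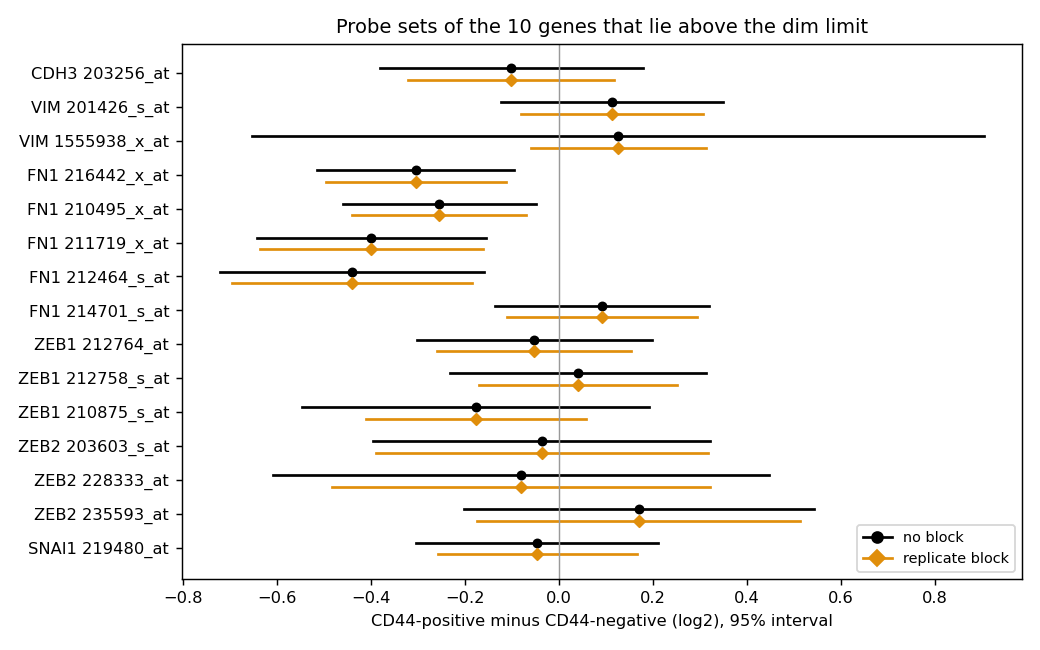
Difference between CD44-positive and CD44-negative cells (log2) with its 95% interval for the 15 probe sets of the 10 genes above the dim limit, from limma's fit over all probe sets, in black without and in orange with the replicate block. The intervals of 4 FN1 probe sets lie wholly under 0, and those of the other 11 span it.

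Read together, 15 of the 26 probe sets lay above the dim limit, 5 with a positive and 10 with a negative difference. They are repeat readings of 6 genes, FN1 with 5 and ZEB1 and ZEB2 with 3 each, so they are not independent. By gene, 1 of the 6 differences was positive and 5 were negative. Over all 13842 genes tested, 6767 were positive and 7075 negative. The median of the 15 probe sets was -0.053, against -0.0024 over all probe sets above the limit. Apart from FN1 no difference among them was larger than 0.18 in size. In 11 of the 15, all but the 4 FN1 probe sets with separate groups, the means of the 3 replicate numbers spanned more than the CD44 difference, as they did in 88.6% of all probe sets above the limit. In the gene fit, 2 of the 6 genes had the same sign in 3 of 3 pairs, VIM on the CD44-positive side and FN1 on the CD44-negative side, while 28.5% of all genes had.

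The genes that work beside these 10 were read from lists. The cadherins beyond the 3 above had 9 tested members, 4 with a positive and 5 with a negative difference, a median of -0.018 and none called, against a median of -0.0025 over all genes. CDH17, the liver-intestine cadherin, stood at 7.27 in CD44-positive against 6.98 in CD44-negative cells, with pair differences of 0.53, 0.46 and -0.11. CDH11 differed by -0.16, CDH12 by -0.27 and CDH26 by -0.072, and all 4 had overlapping groups.

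Catenins, nectins and their partners at the adherens junction had 8 of 10 tested members on the CD44-positive side, against 6767 of all 13842 genes. Their median was 0.048 and none was called. The list medians of pairs 01, 02 and 03 were 0.092, 0.094 and -0.013, so the pairs did not share a sign. VCL, which encodes the actin linker vinculin, stood at 9.80 against 9.62 and AFDN, which encodes the nectin partner afadin, at 8.62 against 8.51 in CD44-positive and CD44-negative cells. In both the groups did not overlap, as in the alpha-catenin gene CTNNA1, at 10.14 against 10.04. That makes 3 of 10 genes beside 5.43% of all genes in either direction. All 3 had the CD44-positive arrays on the high side, as had 391 of all 13842 genes. Whether the list differs from all genes was not tested. NECTIN2 differed by 0.14 and NECTIN3, with the opposite sign in 3 of 3 pairs, by -0.25.

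Other transcription factors of the transition had 6 tested members, 4 of them on the CD44-positive side, with a median of 0.062 and none called. PRRX1, a homeobox factor of mesenchyme, stood at 10.18 against 10.02 and TCF4, a helix-loop-helix factor, at 11.69 against 11.61 in CD44-positive and CD44-negative cells, with overlap in both. HMGA2 differed by -0.12 and TCF12 by -0.13. Of the 13 with a probe set 7 were dim, among them SNAI3, TWIST2 and FOXC2.

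Factors that guard the epithelial state had 7 tested members, 2 on the CD44-positive side, against 6767 of all 13842 genes. Their median was -0.077 and none was called. The list medians of pairs 01, 02 and 03 were -0.20, 0.049 and -0.16, so the pairs did not share a sign. FOXA1, a pioneer factor of endoderm, stood at 5.14 in CD44-positive against 5.41 in CD44-negative cells, with overlapping groups. Its pair differences were -0.20, -0.34 and -0.24, and its adjusted p by limma was 0.384 with the block. KLF4 differed by -0.12, the intestinal factor CDX2 by -0.077 and KLF5 by 0.11. CD44-positive array 02 of FOXA1, at 4.90, and the CD44-positive mean of KLF4, 5.11, were below the dim limit. KLF4 thus passed the dim filter only through its CD44-negative mean. The epithelial factor genes GRHL2, OVOL2 and ESRP1 were dim.

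Epithelial junction genes had 10 of 22 tested members on the CD44-positive side, a median of -0.013 and none called. TJP3, which encodes the tight junction protein ZO-3, stood at 5.56 in CD44-positive against 5.79 in CD44-negative cells without overlap. It was 1 of 22 genes, a share near the 5.43% of all genes. MAL2 differed by -0.19, CLDN7 by -0.14 and PKP3 by -0.094. The CD44-positive mean of CLDN7, 5.06, was below the dim limit, so CLDN7 passed the dim filter only through its CD44-negative mean.

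Mesenchymal effector genes had 15 of 21 tested members on the CD44-positive side, against 6767 of all 13842 genes, and a median of 0.094. The list medians of pairs 01, 02 and 03 were 0.042, -0.0089 and 0.22, so the pairs did not share a sign. None was called without the block and TNC, which encodes the matrix glycoprotein tenascin-C, was called with it. TNC read 7.47, 8.42 and 6.72 in CD44-positive arrays, against 5.16, 6.99 and 4.98 in CD44-negative arrays 01, 02 and 03, so the groups overlapped while each pair differed the same way. The difference was 1.83 ± 0.15 (SE, block; adjusted p = 0.0193 by limma). Without the block the SE was 0.58 and the adjusted p 1.00 by limma. With the block and 1 pair left out, TNC was called each time, at 1.59 to 2.03. COL1A2 stood at 5.40 against 5.09 and ACTA2, smooth muscle actin, at 5.49 against 5.05 in CD44-positive and CD44-negative cells, the second mean of each below the dim limit. They passed the dim filter only through their CD44-positive means, so they lend no support to the count of 15 of 21. COL1A1 stood at 7.65 against 7.88. In COL1A2 and COL1A1 the groups did not overlap, in opposite directions, which makes 2 of 21 genes beside 5.43% of all genes. That count includes COL1A2, which passed the filter through the group where it is high. FN1 and COL1A1 thus had negative differences, while that of TNC was positive. The summed intensity of 12 fibroblast markers, 6 of them dim, was 1572 to 3769 in CD44-positive arrays and 1262 to 2392 in CD44-negative arrays, and these ranges overlap. The sums of the neuroendocrine, leukocyte and endothelial markers overlapped as well. So did that of colorectal epithelial markers, at 4784 to 5212 in CD44-positive and 4776 to 5590 in CD44-negative arrays. The fibroblast sum is of linear intensities and includes COL1A1 and COL1A2, so it is not wholly separate from them. Most of it comes from other markers of that list. Its relation to the other values was not tested.

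**Figure D5:**
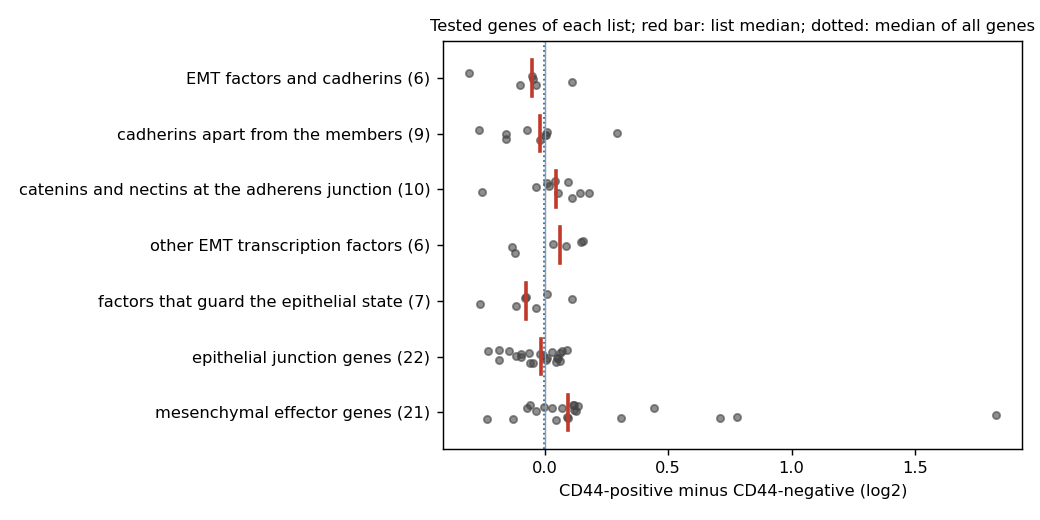
Difference between CD44-positive and CD44-negative cells (log2) of each tested gene in the EMT factor and cadherin list and in the 6 lists around it, with the number of tested genes in brackets. Red bars are list medians, from -0.077 to 0.094, the dotted line is the median of all genes, -0.0025, and the far right point is TNC.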

How the data were processed

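COLO-320DM cells sorted as CD44-positive or CD44-negative were measured on Affymetrix arrays, 3 in each group. The deposited values are linear intensity values made with RMA by the authors, per the submitters' processing notes; its version was not given in the sources used here. Log2 was taken, with no pseudocount. Of 54675 probe sets, 62 were controls and 41091 had 1 gene name, 1801 several and 11721 none; 41037 matched a RefSeq gene ID, which updated symbols.

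Each of 19775 genes was represented by its brightest probe set, and 13842 at or above the 30th percentile of gene means, 5.12, were tested with limma 3.58.1 (R 4.3.3; lmFit, eBayes, two-sided, Benjamini-Hochberg, threshold 0.05). A second fit covered 54613 probe sets without a filter. The fits were checked on simulated data with independent arrays. These held no effect of the replicate number, so the check cannot decide between the fits with and without the block. Python 3.11.15 with pandas 2.3.3, numpy 2.4.6 and matplotlib 3.10.9 was used. The number of arrays limits the precision.

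The labels share numbers without stating a shared culture. Deviations from group means correlated at 0.465, 0.689 and 0.626 between same-numbered arrays, so the pairing comes from the data, and the fit with the replicate block is given where it changes a call.

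The 10 genes and all lists were chosen with earlier results of these data known. Named were the 10 genes, CD44 and, per list, up to 4 tested genes: those called with or without the block, then those with the smallest unadjusted p. Others were named after their values or dimness were seen.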

Additional observations from a re-analysis of the deposited data

How the results depend on the processing

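The alternatives were read for the 6 genes of the gene fit and for all 26 probe sets of the 10 genes. CDH1, CDH2, SNAI2 and TWIST1 were thus followed by probe set only. None of these genes and probe sets was called under any alternative in which it had a value. These were the replicate block, median centring, quantile normalization, a variance trend with robust moderation (also with the block), and leaving out each array or, with the block, each pair. For genes they also included no dim filter, a dim limit at the 50th percentile (which removed CDH3 and SNAI1), averaging of probe sets, and dropping probe sets with an _s_at or _x_at suffix, after which VIM had no probe set and FN1 only dim ones, so neither was tested. The FN1 gene difference lay between -0.35 and -0.20 wherever it was tested, and its lowest adjusted p by limma was 0.207, with the block and a variance trend. Sign changes occurred only when arrays or pairs were left out. The ranges were then -0.15 to 0.024 for ZEB1 (also probe set 212764_at), -0.17 to 0.23 for ZEB2 (also 203603_s_at) and -0.14 to 0.038 for SNAI1 (also 219480_at). For CDH2 they were -0.12 to 0.018 (203441_s_at) and -0.079 to 0.11 (203440_at), for VIM 1555938_x_at -0.20 to 0.47, and for FN1 -0.26 to 0.064 (1558199_at) and -0.17 to 0.19 (214702_at). For ZEB1 they were -0.047 to 0.13 (212758_s_at), -0.31 to 0.0071 (210875_s_at) and -0.25 to 0.056 (239952_at). For ZEB2 they were -0.33 to 0.22 (228333_at), -0.026 to 0.41 (235593_at), -0.20 to 0.031 (233031_at) and -0.22 to 0.012 (233033_at), and for SNAI2 213139_at -0.050 to 0.099. Over all genes, 0 were called as planned, 8 with the replicate block, 2 without the dim filter, 1 without suffixed probe sets and 78 with the block and a variance trend, and 0 to 127 when arrays or pairs were left out. Over all probe sets, 5 were called as planned, 28 with the block, 0 with a variance trend, 165 with both, and 0 to 87 when arrays or pairs were left out. The cause of these shifts was not tested. Signal over background limits CDH1, CDH2, SNAI2 and TWIST1, whose levels were dim.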
